A study of Mus musculus with 42 samples.

Results

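The genes described here are 38 interferon-stimulated antiviral genes, measured by RNA sequencing in mouse bone-marrow-derived macrophages (BMDM), which are cells grown into macrophages in culture from bone marrow. They were chosen as a fixed list of gene symbols, and each symbol was looked up through its Ensembl identifier in the table of read counts. All 38 were among the 37310 genes of that table, and all 38 were among the 11624 genes with enough counts to test. The study labelled the mice of origin WT or KO, where KO stands for a myeloid deletion of Irf5 made by crossing floxed mice with LysM-Cre mice, in which Cre is driven by the Lyz2 promoter of myeloid cells. BMDM were left without treatment (Control) at 0, 2 or 24 h, or received palmitate, a long-chain saturated fatty acid given as a lipid stress, or lipopolysaccharide (LPS), a component of the bacterial outer membrane, for 2 or 24 h. Each of the 14 combinations of label, treatment and time had 3 libraries, 42 in all, numbered here by the order of their columns. The sources used here do not say whether the 3 libraries of a group came from separate mice or cultures, so p-values measure the spread between libraries.

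Interferon-stimulated genes are switched on when type I interferon binds its receptor, IFNAR, on the cell surface. The receptor's kinases then activate STAT factors, among them STAT2, which join IRF9 and bind a short DNA motif, the interferon-stimulated response element (ISRE), near the start of target genes. In macrophages, LPS reaches this pathway through its receptor TLR4 and the adaptor TRIF, which lead to transcription of interferon beta (Ifnb1). The proteins made in this way detect viral nucleic acid, degrade or edit RNA, limit nucleotide pools, trap particles at membranes or modify other proteins.

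The promoters of 6 members are shown because they span the range of ISRE matches among members that LPS raised at 24 h. They are the 300 bases from 250 before to 50 after the start of transcription, from RefSeq on GRCm38.p6, written 5′ to 3′ on the strand of the gene. Capitals mark matches to the ISRE core GAAANNGAAA on either strand, and matches that overlap run together.
Isg15, chr4:156200769-156201068, minus strand: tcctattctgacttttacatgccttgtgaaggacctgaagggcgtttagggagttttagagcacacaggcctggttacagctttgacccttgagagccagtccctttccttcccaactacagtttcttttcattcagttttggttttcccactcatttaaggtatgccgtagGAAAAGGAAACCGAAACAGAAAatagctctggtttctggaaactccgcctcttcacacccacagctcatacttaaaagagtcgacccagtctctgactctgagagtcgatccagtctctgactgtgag
Ifit1, chr19:34640639-34640938, plus strand: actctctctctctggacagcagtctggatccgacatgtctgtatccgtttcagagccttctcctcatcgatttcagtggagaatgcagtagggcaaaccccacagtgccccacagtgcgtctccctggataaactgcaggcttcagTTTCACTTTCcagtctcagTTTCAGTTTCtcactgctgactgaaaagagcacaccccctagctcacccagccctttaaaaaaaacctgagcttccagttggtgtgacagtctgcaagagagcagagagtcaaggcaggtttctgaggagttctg
Rsad2, chr12:26456403-26456702, minus strand: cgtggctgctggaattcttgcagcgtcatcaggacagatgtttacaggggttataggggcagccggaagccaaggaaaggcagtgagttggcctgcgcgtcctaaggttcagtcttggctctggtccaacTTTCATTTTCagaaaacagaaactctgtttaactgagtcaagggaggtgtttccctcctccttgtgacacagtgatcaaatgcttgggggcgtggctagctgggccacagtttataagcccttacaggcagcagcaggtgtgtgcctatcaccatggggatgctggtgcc
Ifih1, chr2:62646206-62646505, minus strand: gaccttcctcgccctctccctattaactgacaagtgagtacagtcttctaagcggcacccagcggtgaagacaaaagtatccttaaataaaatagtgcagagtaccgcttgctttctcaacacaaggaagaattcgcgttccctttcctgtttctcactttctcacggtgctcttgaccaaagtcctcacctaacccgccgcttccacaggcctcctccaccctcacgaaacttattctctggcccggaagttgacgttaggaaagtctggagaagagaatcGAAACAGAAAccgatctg
Ifitm3, chr7:141010695-141010994, minus strand: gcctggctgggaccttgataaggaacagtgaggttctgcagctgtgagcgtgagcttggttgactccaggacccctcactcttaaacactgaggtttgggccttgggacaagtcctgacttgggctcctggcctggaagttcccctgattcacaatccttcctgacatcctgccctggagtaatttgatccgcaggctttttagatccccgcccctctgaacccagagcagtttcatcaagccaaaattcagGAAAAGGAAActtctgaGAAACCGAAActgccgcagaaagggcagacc
Ms4a4c, chr19:11407411-11407710, plus strand: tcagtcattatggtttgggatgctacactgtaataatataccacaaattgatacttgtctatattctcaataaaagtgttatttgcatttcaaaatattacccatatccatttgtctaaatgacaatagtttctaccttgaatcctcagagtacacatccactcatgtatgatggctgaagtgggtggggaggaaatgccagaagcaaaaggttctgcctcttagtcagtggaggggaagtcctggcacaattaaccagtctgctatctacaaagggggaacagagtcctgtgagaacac
Isg15 held 3 matches, the first of them 78 bases before the start, and Ifit1 held 2. Rsad2 held 1 match before the start, Ifih1 held 1 after it, Ifitm3 held 2 after it, and Ms4a4c held 0. A promoter was at hand for 30 of the 38 members, and 12 of these 30 (40%) held the ISRE core, against 3.99% of all 27025 genes with a promoter. The GAS motif TTCNNNGAA, also searched on both strands, was in 9 of 30 members (30%) and in 9.55% of all genes. A match is a run of letters in this window and was not shown to be a site of binding. Elements with other letters or outside the window were not searched, so a missing match does not show that a member lacks an ISRE. The window of Ms4a4c lies inside the gene as annotated for the counts, which starts at base 11404770. After 2 h of LPS, the median log2 fold change of the 12 members with an ISRE match was 0.67 in WT-labelled libraries, and that of the 18 without one was 1.13. In KO-labelled libraries these medians were 0.97 and 1.36. At 24 h they were 3.67 and 3.80 (WT) and 3.66 and 3.73 (KO).

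Before any treatment was compared, the levels and the labels were examined. A level is given as CPM, the counts of a gene when its library, after TMM scaling, is set to 1000000 counts. Library totals lay between 2848793 and 7743442 counts, so that 3 counts stood for 0.387 to 1.05 CPM. Irf5, the gene that the KO label refers to, had 209.5 to 389 CPM over the 21 WT-labelled libraries and 267 to 430.5 CPM over the 21 KO-labelled ones. Irf5 was thus not lower in the KO-labelled libraries, and it was called higher there in 4 of 7 conditions. A count over a whole gene does not show whether part of it was removed, and differences between the labels are therefore given as differences between libraries labelled KO and WT. All 8 macrophage markers were present, with a summed level of 5206 to 9305 CPM. The 6 markers of plasmacytoid dendritic cells, which make much interferon, summed to 133 to 460.3 CPM, of which Bst2 is itself a member, and the defining marker Siglech stayed at or below 3.63 CPM. Markers of B cells and of T or NK cells stayed at or below 14.6 and 4.32 CPM in sum. In bulk RNA, fewer expressing cells and less RNA per cell cannot be told apart.

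At the start of culture the 38 members differed widely in level. Per kilobase of exon, the highest in WT-labelled Control libraries at 0 h were Lgals3bp, a secreted glycoprotein, at a mean of 117 CPM per kb, Slfn2, a Schlafen family member of immune cells, at 104 CPM per kb, and Ifitm3, a membrane protein that blocks viral entry, at 100.2 CPM per kb. The lowest were Mx2 at 0.182 and Ms4a4c at 0.323 CPM per kb. After 2 h of LPS the order was led by Slfn2 (888 CPM per kb), Ifit1 (237) and Rsad2 (229), and after 24 h by Ifitm3 (709.7), Lgals3bp (586) and Ifit3 (417). Summed over the 38 members, the level was 1800 ± 97.4 CPM (SD, n = 3) in WT-labelled Control at 0 h, 6470 ± 311 CPM after 2 h of LPS and 13600 ± 803 CPM after 24 h of LPS. In KO-labelled libraries these sums were 2006 ± 98.3, 7153 ± 391 and 14310 ± 498 CPM. Palmitate libraries summed to means of 1427 to 1743 CPM.

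**Figure D1:**
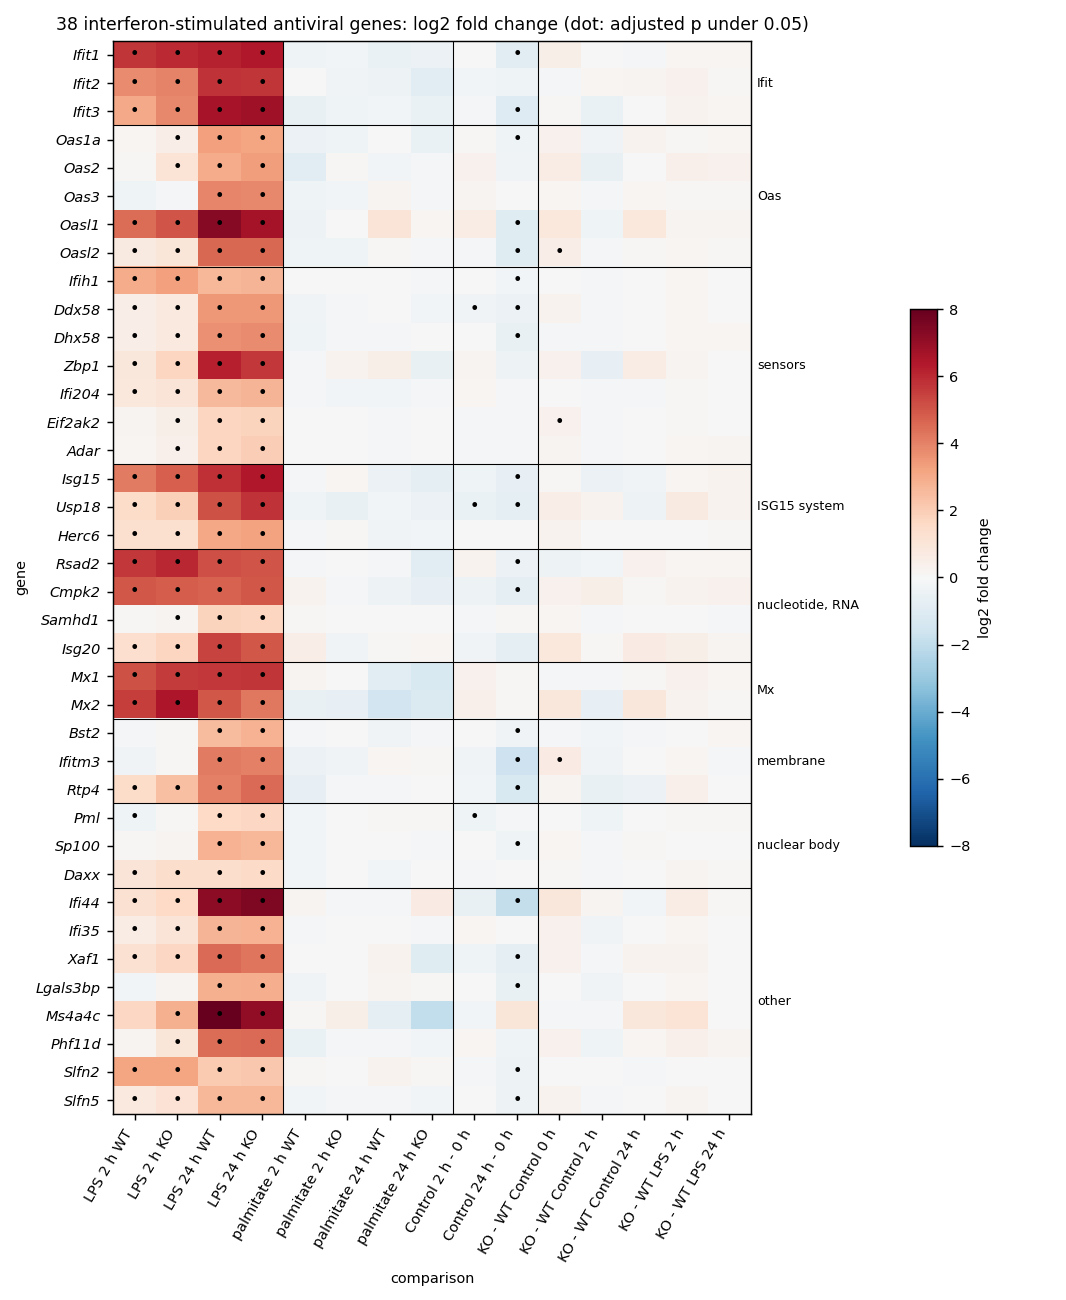
Log2 fold changes of the 38 members (rows, grouped by role) in 15 comparisons (columns), with a dot where the adjusted p was under 0.05. The LPS columns at 24 h are filled with dots from top to bottom, those at 2 h in part, and the 4 palmitate columns hold none.

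The first comparison asked which antiviral genes LPS had changed by 2 h, against Control of the same time and label. In WT-labelled libraries 25 of 38 members rose and 1, Pml, fell, and 3 and 4 fell when only the libraries compared or all genes with a count were fitted. In KO-labelled libraries 32 rose and 0 fell. Over all 11624 genes tested, 14% rose and 9.10% fell in WT-labelled libraries, and 14.7% rose and 9.16% fell in KO-labelled ones. The median log2 fold change of the members was 0.97 in WT- and 1.36 in KO-labelled libraries, and that of all genes was -0.01 under each label. A gene was called, here and below, at an adjusted p under 0.05 in edgeR's quasi-likelihood test, with Benjamini-Hochberg adjustment over all genes tested.

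Members of the IFIT family, which bind viral RNA, were among the genes with the largest early change. Ifit1 had 13.2, 11.1 and 11.4 CPM in the WT-labelled Control libraries and 567, 760.4 and 559 CPM after LPS, a log2 fold change of 5.73 (standard error 0.14, adjusted p = 3.32e-36). In KO-labelled libraries Ifit1 went from 15, 8.77 and 10.7 CPM to 722, 691 and 712 CPM, a log2 fold change of 5.94 (standard error 0.14, adjusted p = 9.38e-37). Every LPS library lay far above every Control library under both labels. Ifit2 and Ifit3 rose as well, Ifit2 by 3.76 and 3.94 and Ifit3 by 3.05 and 3.83 on the log2 scale in WT- and KO-labelled libraries.

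Rsad2 encodes viperin, an enzyme that makes a chain-terminating nucleotide, and lies beside Cmpk2, which encodes a nucleotide kinase. Rsad2 stood at 20.9, 20.2 and 18.1 CPM in WT-labelled Control and at 949, 1090.1 and 941 CPM after LPS, a log2 fold change of 5.66 (standard error 0.14, adjusted p = 2.22e-35). In KO-labelled libraries its levels were 18.3, 17.2 and 14.6 CPM and 1036, 1125 and 1164 CPM, a log2 fold change of 6.06 (standard error 0.15, adjusted p = 4.23e-36). The LPS libraries were close to one another and did not meet the Control range. Cmpk2 rose by 5.00 and 4.82 on the log2 scale.

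Both Mx genes, of a family of dynamin-like GTPases that trap viral particles, rose from low levels. Whether either transcript gave a working protein in these mice was not examined. Mx2 counted 10, 7 and 11 reads in the WT-labelled Control libraries and 209, 335 and 405 after LPS. As levels these were 1.94, 1.16 and 1.63 CPM and 74.8, 68.8 and 75.2 CPM, a log2 fold change of 5.53 (standard error 0.27, adjusted p = 5.13e-23). In KO-labelled libraries Mx2 went from 1.27, 0.358 and 1.36 to 81.2, 101 and 83.3 CPM, a log2 fold change of 6.44 (standard error 0.29, adjusted p = 1.53e-24). All 6 LPS libraries held at least 68.8 CPM, and all 6 Control libraries held less than 2 CPM. The annotation calls Mx2 a polymorphic pseudogene in the reference mouse. Mx1 rose by 5.08 and 5.58 on the log2 scale.

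Isg15 encodes a ubiquitin-like protein that is joined to other proteins, and Usp18 the protease that removes it and dampens interferon receptor signalling. Isg15 had 1.35, 4.63 and 4.45 CPM in WT-labelled Control and 70.5, 64.9 and 61.7 CPM after LPS, a log2 fold change of 4.17 (standard error 0.20, adjusted p = 2.73e-23). In KO-labelled libraries it had 4.71, 1.61 and 1.70 and 63.4, 73.5 and 80.01 CPM, a log2 fold change of 4.77 (standard error 0.22, adjusted p = 1.12e-24). Isg15 was low in every Control library and did not overlap with LPS under either label. Usp18 rose less, from 6.97, 4.47 and 5.78 to 17.5, 15 and 16.2 CPM in WT-labelled libraries, a log2 fold change of 1.49 (standard error 0.26, adjusted p = 1.08e-05). In KO-labelled libraries Usp18 rose from 8.14, 8.24 and 4.92 to 20.1, 29.2 and 27 CPM, a log2 fold change of 1.88 (standard error 0.24, adjusted p = 5.37e-09). The LPS libraries of Usp18 again lay above all Control libraries. Herc6, an ISG15 ligase in the mouse, rose by 1.28 and 1.31 on the log2 scale.

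The sensors of nucleic acid moved unequally at 2 h. Ifih1 encodes MDA5, a receptor for long double-stranded RNA, and rose from 40.1, 37.9 and 45.8 to 331, 287 and 364 CPM in WT-labelled libraries, a log2 fold change of 2.98 (standard error 0.10, adjusted p = 1.72e-30). Its KO-labelled levels went from 43.1, 33.3 and 38.2 to 371, 365 and 357 CPM, a log2 fold change of 3.25 (standard error 0.10, adjusted p = 7.25e-32). Ifih1 did not overlap between treatments under either label. Ddx58, which encodes the related receptor RIG-I, changed much less in WT-labelled libraries, from 41.2, 53.3 and 44.7 to 66.2, 67.2 and 69.6 CPM, a log2 fold change of 0.54 (standard error 0.12, adjusted p = 0.000436). Dhx58, which encodes LGP2, rose from 18, 18 and 18.5 to 26.5, 28.6 and 23 CPM, a log2 fold change of 0.51 (standard error 0.15, adjusted p = 0.00932), and this call was lost without WT-labelled LPS library 2 (0.42, adjusted p = 0.0846). All Ddx58 and Dhx58 libraries with LPS lay above those without, by a smaller margin. Of the 7 sensors, 5 rose in WT-labelled and 7 in KO-labelled libraries. The 2 called under the KO label alone were Eif2ak2, which encodes the RNA-dependent kinase PKR, and Adar, which encodes an RNA-editing enzyme. Eif2ak2 went from 60.1, 51.7 and 49.9 to 71.7, 77 and 76.1 CPM in KO-labelled libraries, a log2 fold change of 0.48 (standard error 0.09, adjusted p = 5.15e-05). Adar went from 89, 77.7 and 76.5 to 107, 96.8 and 113 CPM there, a log2 fold change of 0.38 (standard error 0.10, adjusted p = 0.00203). In WT-labelled libraries the log2 fold changes of Eif2ak2 and Adar were 0.23 (standard error 0.09, adjusted p = 0.0606) and 0.15 (standard error 0.10, adjusted p = 0.294).

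Other members showed small or no change at 2 h. Samhd1, which encodes an enzyme that hydrolyses deoxynucleotides, had 247, 232 and 232 CPM in KO-labelled Control and 285, 269 and 260.1 CPM after LPS, a log2 fold change of 0.19 (standard error 0.07, adjusted p = 0.0318). This call was lost without any 1 of 4 of the 6 libraries compared (KO-labelled Control 2 and 3, LPS 1 and 2), with the log2 fold change between 0.15 and 0.20. It was also lost with all genes that had a count (adjusted p = 0.123) and with only the libraries compared (0.0784), under which 29 members rose in KO-labelled libraries. Pml, which encodes the scaffold of PML nuclear bodies, was the single member that fell, from 42.4, 42.2 and 42.7 to 33.6, 31.2 and 35.7 CPM in WT-labelled libraries, a log2 fold change of -0.34 (standard error 0.11, adjusted p = 0.0244). The ranges of Pml did not overlap, but the call was lost without WT-labelled Control library 3 (adjusted p = 0.056) or LPS library 2 (adjusted p = 0.116). In KO-labelled libraries the log2 fold change of Pml was 0.07 (standard error 0.12, adjusted p = 0.737). Calls of 3 further WT-labelled members rested on single libraries. Isg20 was not called without Control 3 or LPS 2, Ifi44 without LPS 3, and Ifi35 without Control 1 or LPS 1, with log2 fold changes of 0.47 to 1.06. Oas1a was not called in KO-labelled libraries without Control 2 or 3 or LPS 1 or 3 (0.35 to 0.47). The 5 members called under neither label were Oas3, Bst2, Ifitm3, Sp100 and Lgals3bp.

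A gap in the values set 11 members apart at 2 h. Ifit1, Ifit2, Ifit3, Oasl1, Ifih1, Isg15, Rsad2, Cmpk2, Mx1, Mx2 and Slfn2 each had a log2 fold change over 2 under both labels, with lowest values of 2.98 in WT- and 3.14 in KO-labelled libraries, while the highest of the other 27 was Ms4a4c at 1.66 and 2.84. The limit of 2 was set after the values had been seen, so the gap is a description. Slfn2 had the highest level of all members at this time per kb of exon. It went from 164, 157 and 169 to 1456, 1589.7 and 1388 CPM in WT-labelled libraries, a log2 fold change of 3.18 (standard error 0.08, adjusted p = 1.14e-35). Its KO-labelled levels were 181, 171 and 157 and 1412, 1559 and 1504 CPM, a log2 fold change of 3.14 (standard error 0.08, adjusted p = 1.77e-35). The OAS family, which makes the oligoadenylates that activate RNase L, was split, with Oasl1 up by 4.46 and 5.03 on the log2 scale and Oas3 at -0.34 (standard error 0.16, adjusted p = 0.131) and -0.11 (standard error 0.17, adjusted p = 0.718).

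**Figure D2:**
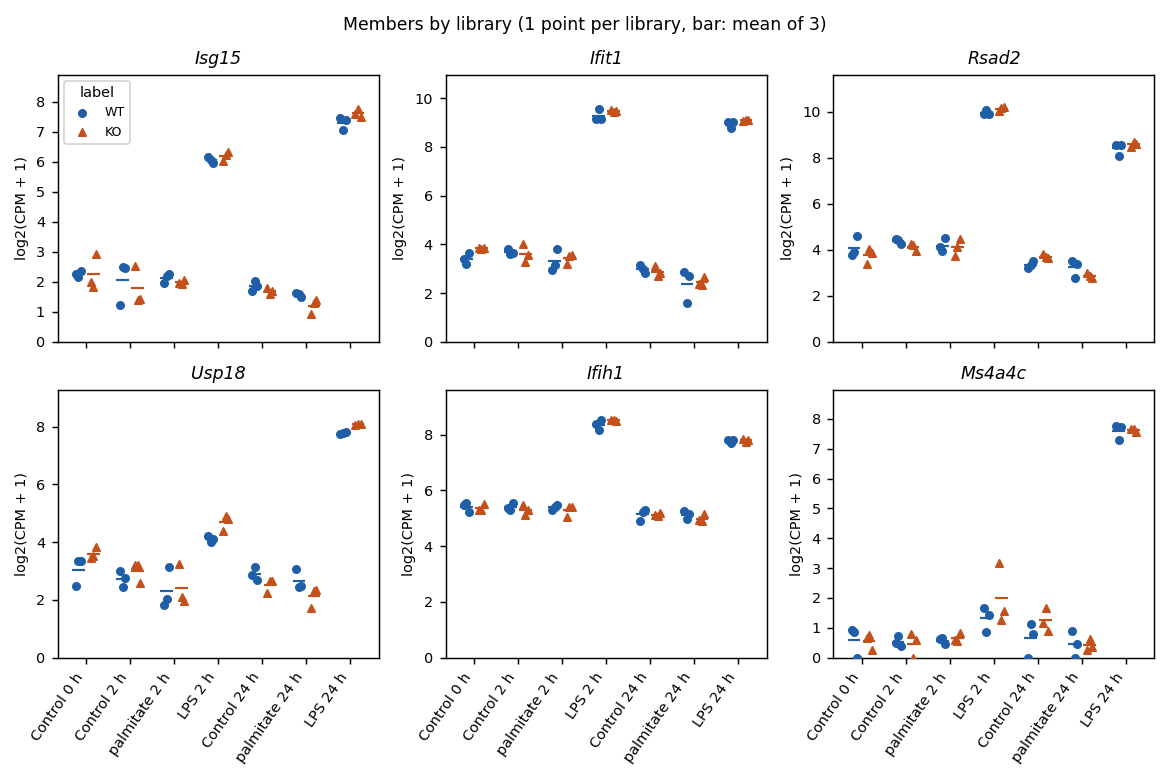
Levels of 6 members in each library, as log2(CPM + 1), against condition, with circles for WT-labelled and triangles for KO-labelled libraries and a bar at the mean of 3. Isg15, Ifit1, Rsad2 and Ifih1 are high at both LPS times, Usp18 is highest at 24 h, and Ms4a4c is high at 24 h alone.

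By 24 h of LPS all 38 members had risen, under both labels. The background was 19.6% of genes higher and 19.9% lower in WT-labelled libraries, and 19.9% higher and 21% lower in KO-labelled ones. The median log2 fold change of the members was 3.95 under each label, and the range was 1.40 to 8.0 in WT- and 1.51 to 7.47 in KO-labelled libraries. For all 38 members every LPS library lay above every Control library under both labels, against 26 (WT) and 30 (KO) members at 2 h. Of all genes tested, 24.3% and 24.7% did so at 24 h and 19.2% and 19% at 2 h. All 38 calls held under each alternative and without any single library.

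Ms4a4c, a membrane protein of the MS4A family, had the largest change in WT-labelled libraries. It counted 0, 7 and 5 reads in the WT-labelled Control libraries at 24 h and 1258, 948 and 1383 after LPS. Its levels were 0, 1.2 and 0.728 CPM and 215, 157 and 212 CPM, a log2 fold change of 8.0 (standard error 0.30, adjusted p = 3.43e-28), which rests on 12 Control reads. With so few reads this standard error may be too small. In KO-labelled libraries the levels were 1.24, 2.19 and 0.849 and 201, 203 and 186 CPM, a log2 fold change of 7.12 (standard error 0.27, adjusted p = 6.01e-28). At 2 h the same gene had been at 2.15, 0.822 and 1.67 CPM with LPS in WT-labelled libraries. Outside LPS at 24 h Ms4a4c reached at most 7.97 CPM, in KO-labelled LPS 2 h library 1.

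Ifi44, an interferon-induced cytoplasmic protein, had the largest change in KO-labelled libraries. Its KO-labelled levels were 0.497, 1.46 and 1.42 CPM in Control and 211, 220.2 and 218 CPM after LPS, a log2 fold change of 7.47 (standard error 0.27, adjusted p = 1.46e-28). WT-labelled levels were 1.68, 1.89 and 0.874 and 215, 186 and 221 CPM, a log2 fold change of 7.17 (standard error 0.27, adjusted p = 3.99e-28). The 6 LPS libraries of Ifi44 lay within 186 to 221 CPM. Oasl1, which encodes an OAS-like protein without synthetase activity, went from 0.842, 2.74 and 1.02 to 257, 214 and 275 CPM in WT-labelled libraries, a log2 fold change of 7.26 (standard error 0.22, adjusted p = 8.92e-32). Ifit3 went from 11.9, 4.92 and 6.37 to 770.4, 854 and 771 CPM in KO-labelled libraries, a log2 fold change of 6.77 (standard error 0.22, adjusted p = 2.55e-30).

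The genes named at 2 h were elevated at 24 h as well. Isg15 had 173, 133 and 167 CPM in WT- and 190.2, 215 and 179 CPM in KO-labelled LPS libraries at 24 h, log2 fold changes of 5.85 (standard error 0.20, adjusted p = 2.65e-29) and 6.43 (standard error 0.21, adjusted p = 1.19e-30). Usp18 had 214, 219 and 227 and 265, 274 and 273 CPM, log2 fold changes of 5.10 (standard error 0.20, adjusted p = 2.04e-27) and 5.79 (standard error 0.20, adjusted p = 4.24e-29). Both stood well above their 2 h levels with LPS. Ifit1 had 515, 442 and 511 and 533, 547 and 545 CPM, log2 fold changes of 6.18 (standard error 0.15, adjusted p = 6.3e-35) and 6.42 (standard error 0.15, adjusted p = 1.2e-35). Rsad2 had 378, 271 and 376 and 355, 406 and 389 CPM, log2 fold changes of 5.17 (standard error 0.16, adjusted p = 4.4e-31) and 5.01 (standard error 0.15, adjusted p = 2.3e-31). Ifih1 had 224, 209 and 224 and 229.9, 215 and 222 CPM, log2 fold changes of 2.63 (standard error 0.10, adjusted p = 1e-27) and 2.71 (standard error 0.10, adjusted p = 3.15e-28). The levels of these last 3 genes with LPS were lower at 24 h than at 2 h.

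The smallest changes at 24 h belonged to genes that were well expressed in Control. Daxx, a histone chaperone of PML nuclear bodies, went from 52.2, 47.3 and 42.8 to 120.3, 120.5 and 131 CPM in WT-labelled libraries, a log2 fold change of 1.40 (standard error 0.09, adjusted p = 5.54e-19), and by 1.51 (standard error 0.09, adjusted p = 2.2e-20) in KO-labelled ones. Pml went from 44.6, 43.7 and 39.3 to 126, 122 and 138 CPM, a log2 fold change of 1.61 (standard error 0.10, adjusted p = 2.68e-19), and by 1.64 (standard error 0.10, adjusted p = 7.86e-20) under the KO label. Both nuclear body genes rose without overlap. Eif2ak2 went from 50.5, 58.1 and 61.9 to 204, 192 and 173 CPM in WT-labelled libraries, a log2 fold change of 1.72 (standard error 0.09, adjusted p = 5.04e-23). Samhd1 went from 253, 271 and 297 to 901, 943 and 863 CPM in KO-labelled libraries, a log2 fold change of 1.72 (standard error 0.07, adjusted p = 1.58e-27).

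By class, each group had risen in full at 24 h. The 3 IFIT genes had a median log2 fold change of 6.18 in WT-labelled libraries, the 3 genes of ISG15 conjugation 5.10, the 2 Mx genes 5.33 and the 4 enzymes of nucleotides and RNA 4.93. The 3 membrane genes Bst2 (tetherin), Ifitm3 and Rtp4 stood at 4.02 and the 5 OAS genes at 3.88. The 7 sensors stood at 2.63 and the 3 nuclear body genes at 1.61. The median over the other 8 members was 3.68.

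Whether the LPS effect itself differed between 2 and 24 h was tested as the difference of the 2 fold changes. It was larger at 24 h for 31 members in WT- and 30 in KO-labelled libraries, 30 of them under both labels, and smaller for 1 and 4 members. Over all genes tested, the effect was called higher at 24 h for 14.5% and lower for 18.1% in WT-labelled libraries, and for 14.3% and 19% in KO-labelled ones. The median difference of the members was 2.62 and 2.00 on the log2 scale. The Controls of both times enter each difference.

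The largest increases between the times were in genes that LPS had left low at 2 h. In WT-labelled libraries they were in Ms4a4c at 6.34 (standard error 1.23, adjusted p = 4.6e-05), in Ifi44 at 5.94 (standard error 0.55, adjusted p = 1e-12) and in Zbp1, a sensor of Z-form nucleic acid, at 5.33 (standard error 0.29, adjusted p = 6.73e-21). Zbp1 had 23.3, 17.9 and 20.4 CPM with LPS at 2 h and 348, 314 and 360.2 CPM at 24 h, with Controls of 10.6, 12.1 and 9.93 and 3.93, 5.31 and 4.22 CPM. In KO-labelled libraries they were in Ifi44 at 5.88 (standard error 0.54, adjusted p = 6.69e-13), in Ms4a4c at 4.28 (standard error 1.15, adjusted p = 0.00265) and in Oas3 at 3.96 (standard error 0.22, adjusted p = 9.78e-21). The call of Ms4a4c was lost without KO-labelled Control 2 h library 1 (3.68, adjusted p = 0.0851), and so was that of Isg15 (1.00, adjusted p = 0.117). Oas3 had 44.8, 44 and 58.8 CPM with LPS at 2 h, among its Control values of 72.2, 36.7 and 51.4 CPM, and 740.3, 818 and 708 CPM at 24 h. The LPS libraries of Oas3 lay within the Control range at 2 h and far above it at 24 h.

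Against this trend, Slfn2 had a smaller LPS effect at 24 h under both labels. Its levels with LPS fell from the 2 h values above to 588, 566 and 608 CPM in WT- and 554, 589 and 577 CPM in KO-labelled libraries. The difference of the effects was -1.09 (standard error 0.11, adjusted p = 4.89e-12) in WT- and -0.99 (standard error 0.11, adjusted p = 8.61e-11) in KO-labelled libraries. In KO-labelled libraries 3 more members had a smaller effect at 24 h. They were Rsad2 at -1.04 (standard error 0.24, adjusted p = 0.000544), Ifih1 at -0.55 (standard error 0.14, adjusted p = 0.00204) and Mx2 at -2.24 (standard error 0.57, adjusted p = 0.00157). The call of Mx2 was lost without KO-labelled Control 24 h library 3 (-1.14, adjusted p = 0.319), in which Mx2 counted 17 reads against 3 in each of the others. In WT-labelled libraries the same differences were -0.49 (standard error 0.25, adjusted p = 0.135) for Rsad2, -0.35 (standard error 0.14, adjusted p = 0.05003) for Ifih1 and -0.55 (standard error 0.65, adjusted p = 0.565) for Mx2. The smallest increase called was that of Daxx in WT-labelled libraries, 0.36 (standard error 0.13, adjusted p = 0.0239), a call lost without any 1 of 4 of the 12 libraries (WT-labelled Control 2 h library 3, LPS 2 h library 3, Control 24 h library 3 or LPS 24 h library 3). The 11 members set apart at 2 h had a median log2 fold change at 24 h of 5.68 in WT- and 5.71 in KO-labelled libraries, and the other 27 had 3.25 and 3.32.

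**Figure D3:**
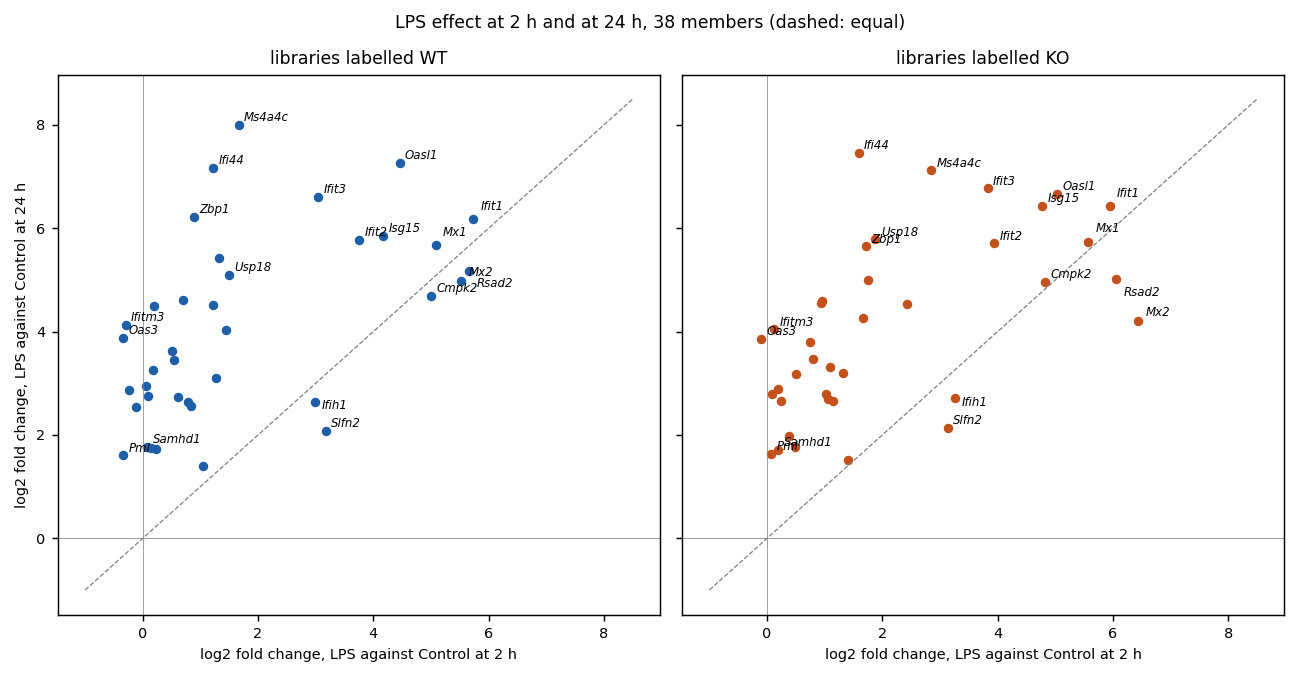
Log2 fold change of each member after 24 h of LPS (vertical) against that after 2 h (horizontal), WT-labelled libraries on the left and KO-labelled on the right, with a dashed line where both are equal. Most members lie above the line, the 38 members reach 1.40 to 8.0 at 24 h in WT-labelled libraries, and Slfn2, Ifih1, Rsad2 and Mx2 lie below the line in both.

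The genes that carry the interferon signal were followed in the same libraries, on a list of 39 genes of which 32 were tested. Of these, 19 rose and 3 fell at 2 h in WT-labelled libraries, 20 rose and 2 fell in KO-labelled ones, and at 24 h 21 rose and 1 fell (WT) and 20 rose and 1 fell (KO). The shares over all genes were those given above for each comparison, 14% up and 9.10% down at 2 h and 19.6% up and 19.9% down at 24 h in WT-labelled libraries. Ifnb1, the ligand, was the 1 tested gene of 8 ligands listed. It counted 54, 155 and 149 reads in WT-labelled LPS libraries at 2 h (19.3, 31.9 and 27.7 CPM) and 32, 101 and 90 reads in KO-labelled ones (12.1, 20.5 and 19.5 CPM). In the other 36 libraries it counted between 0 and 3 reads, so no fold is given. The receptor subunit Ifnar1 changed little, with log2 fold changes of 0.18 (standard error 0.07, adjusted p = 0.0395) and 0.19 (standard error 0.07, adjusted p = 0.0286) at 2 h and of 0.19 (standard error 0.07, adjusted p = 0.0176) and 0.11 (standard error 0.07, adjusted p = 0.202) at 24 h. The LPS receptor Tlr4 had -0.29 (standard error 0.10, adjusted p = 0.0245) and -0.12 (standard error 0.10, adjusted p = 0.453) at 2 h.

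Of the factors that act on the ISRE, Stat2 had 45.5, 52.8 and 42.4 CPM in WT-labelled Control and 60.8, 53.4 and 67.2 CPM with LPS at 2 h, and 38.7, 35.1 and 38.3 and 399.8, 313 and 391 CPM at 24 h. The groups of Stat2 did not overlap at either time, with a wider gap at 24 h. Its log2 fold changes in WT- and KO-labelled libraries were 0.37 (standard error 0.12, adjusted p = 0.0207) and 0.81 (standard error 0.12, adjusted p = 3.3e-07) at 2 h and 3.30 (standard error 0.11, adjusted p = 1.44e-29) and 3.11 (standard error 0.11, adjusted p = 3.82e-29) at 24 h. Irf9 rose at both times, by 0.71 (standard error 0.11, adjusted p = 1.48e-06) and 0.86 (standard error 0.11, adjusted p = 1.75e-08) at 2 h and by 1.52 (standard error 0.11, adjusted p = 9.22e-17) and 1.40 (standard error 0.11, adjusted p = 9.44e-16) at 24 h.

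Irf7, the factor that amplifies interferon production and is itself interferon-stimulated, was separated most by time. It had 44.7, 38.4 and 40.3 CPM in WT-labelled LPS libraries at 2 h, within its Control range of 45.5, 61.7 and 42.8 CPM or below it, and 1547, 1629.7 and 1642 CPM at 24 h against 17.7, 20.6 and 26.7 CPM in Control. Its log2 fold changes were -0.30 (standard error 0.23, adjusted p = 0.411) at 2 h and 6.17 (standard error 0.22, adjusted p = 4.49e-29) at 24 h in WT-labelled libraries, and 0.36 (standard error 0.23, adjusted p = 0.301) and 6.17 (standard error 0.22, adjusted p = 3.04e-29) in KO-labelled ones. Irf1 ran the other way, with log2 fold changes of 3.31 and 3.29 at 2 h and 1.36 and 1.38 at 24 h. Irf5 itself rose at 2 h under both labels, by 0.59 and 0.45. For comparison in time, 15 early targets of NF-kappaB such as Tnf and Nfkbia all rose at 2 h under both labels, with medians of 4.77 and 4.65, and 13 rose at 24 h, with medians of 1.43 and 1.59. The LPS effect on these 15, unlike that on most members, was called lower at 24 h than at 2 h for 13 in WT- and 14 in KO-labelled libraries. Of all genes, 18.1% and 19% were called lower in the same comparison.

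**Figure D4:**
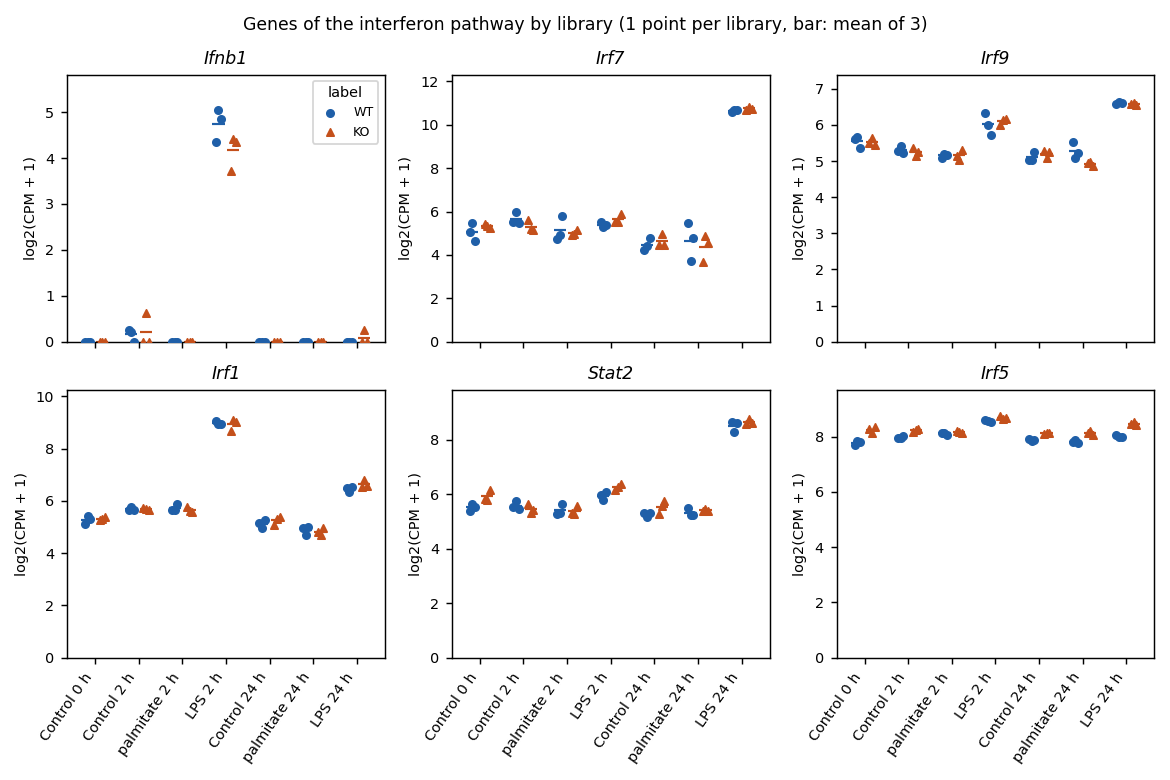
Levels of 6 genes of the interferon pathway in each library, as log2(CPM + 1), against condition, with circles for WT-labelled and triangles for KO-labelled libraries and a bar at the mean of 3. Ifnb1 is present at LPS 2 h and at or near 0 elsewhere, while Irf7 and Stat2 are highest at LPS 24 h, Irf1 is highest at LPS 2 h, and Irf5 lies as high or higher in KO-labelled libraries in each condition's mean.

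Granulocyte precursor markers, of which Lcn2 is also an LPS-induced gene of macrophages, were higher in sum with LPS at both times, a difference that was not tested. All 8 had counts in the series. At 2 h their sum was 35.8 to 57.4 CPM with LPS against 16.5 to 25.9 CPM in Control in WT-labelled libraries, and 110 to 182 against 54.5 to 108 CPM in KO-labelled ones. Their sum was 331 to 449 CPM in WT- and 315 to 385 CPM in KO-labelled LPS libraries at 24 h, against 44.7 to 53.1 and 99.8 to 160 CPM in Control. Each of the 8 reached 1 CPM in at least 1 library. Elane, a defining marker of these cells, reached at most 1.56 CPM in any library, so the other markers carried most of each sum. The part of this list in the members' change was not tested. The plasmacytoid dendritic cell list summed to 396 to 460.3 CPM in LPS libraries at 24 h, and its member Siglech stayed at the low level given above.

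Palmitate was compared with Control to ask whether lipid stress alone moved these genes. In the edgeR fit reported, 0 members were called in either direction at 2 or 24 h, under either label. The background was low too, with 0.275% of genes called in either direction at 2 h in WT-labelled and 0.112% in KO-labelled libraries, and 0.852% and 0.877% at 24 h. At an unadjusted p under 0.05 the counts were 14, 3, 5 and 7 members in the same order, where 7.45%, 4.61%, 9.02% and 7.97% of all genes passed that limit. DESeq2 called 0 and 0 at 2 h and 1 and 1 at 24 h, namely Slfn2 higher in WT-labelled and Rsad2 lower in KO-labelled libraries. With all genes that had a count, edgeR called 5 lower at 2 h (WT), and 1 higher (WT) and 4 lower (KO) at 24 h. With only the libraries compared, these counts were 1, 1 and 2. Both alternatives called Oas2 (WT, 2 h), Slfn2 (WT, 24 h), and Ifit2 and Rsad2 (KO, 24 h). The shares of all genes called under them are not given. In the fit reported, the members' median log2 fold change was -0.20 and -0.05 at 2 h and -0.12 and -0.18 at 24 h.

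Of the 5 genes described throughout, edgeR called none with palmitate at 24 h in the fit of all libraries. Rsad2 was called lower in KO-labelled libraries by DESeq2 (adjusted p = 0.0204), with all genes that had a count (2.18e-05) and with only the libraries compared (0.0118). Isg15 had 2.08, 2.03 and 1.80 CPM in WT- and 0.893, 1.45 and 1.60 CPM in KO-labelled libraries after 24 h of palmitate, log2 fold changes of -0.45 (standard error 0.40, adjusted p = 0.809) and -0.74 (standard error 0.44, adjusted p = 0.76). Ifit1 had 6.23, 2.03 and 5.41 and 4.11, 3.98 and 5.23 CPM, log2 fold changes of -0.55 (standard error 0.29, adjusted p = 0.58) and -0.48 (standard error 0.29, adjusted p = 0.749). Rsad2 had 10.6, 5.91 and 9.38 and 6.97, 6.16 and 5.81 CPM, log2 fold changes of -0.12 (standard error 0.26, adjusted p = 0.941) and -0.91 (standard error 0.26, adjusted p = 0.0837). Its KO-labelled palmitate libraries all lay below the Control libraries. Usp18 had log2 fold changes of -0.22 (standard error 0.31, adjusted p = 0.907) and -0.48 (standard error 0.35, adjusted p = 0.842), and Ifih1 of -0.05 (standard error 0.12, adjusted p = 0.95) and -0.13 (standard error 0.12, adjusted p = 0.886). The smallest adjusted p at 24 h in WT-labelled libraries was that of Slfn2, which had 142, 127 and 146 CPM in Control and 179, 164 and 167 CPM with palmitate, a log2 fold change of 0.30 (standard error 0.08, adjusted p = 0.0607). At 2 h the WT-labelled palmitate libraries were uneven, and library 3 lay above the mean of its group for 33 of the 38 members. At 24 h library 1 of the WT-labelled palmitate group did so for 33 members.

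Palmitate intervals limit what could be seen. The median SE of the 38 log2 fold changes was 0.18 at 2 h and 0.21 at 24 h under each label. A missing call does not show that the members were unmoved.

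The libraries labelled KO and WT were compared in each of 7 conditions, since the study asked what Irf5, a factor downstream of LPS sensing, does in these cells. In Control at 0 h 3 members were higher in KO-labelled libraries and 0 lower, where 12.5% of all genes differed in either direction. The median difference of the members was 0.25 on the log2 scale, and 31 of 38 lay above 0, against 50% of all genes. Ifitm3 had 64.8, 76.1 and 62.8 CPM in WT- and 119, 73.1 and 132 CPM in KO-labelled libraries, a log2 difference of 0.67 (standard error 0.17, adjusted p = 0.00559). KO-labelled library 2 lay within the WT range, and the call was lost without KO-labelled library 3 (0.50, adjusted p = 0.0889). Eif2ak2 had 54.3, 55.9 and 52.1 and 69.3, 66.3 and 68.7 CPM, a log2 difference of 0.33 (standard error 0.09, adjusted p = 0.00994), which was lost without WT-labelled library 3 (0.30, adjusted p = 0.0564). Oasl2 had 39.6, 49.3 and 36.6 and 55.2, 56.7 and 68.4 CPM, a log2 difference of 0.53 (standard error 0.16, adjusted p = 0.0222), lost without WT-labelled library 1 or 3 or KO-labelled library 3 (0.43 to 0.49). For these 2 genes the labels did not overlap. Fibroblast markers summed to 0.529 to 0.905 CPM in the WT-labelled and 42.1 to 69.3 CPM in the KO-labelled libraries of Control at 0 h, mostly collagen genes, with Dcn at or below 0.765 CPM in any library, and the 8 granulocyte precursor markers summed to 37.4 to 43.8 and 58.7 to 65.6 CPM. The part of either list in these differences was not tested. DESeq2 called 2 members and did not call Oasl2 (adjusted p = 0.0625). Without WT-labelled library 3 the count of members called fell to 1, and the share of all genes called in that refit is not given.

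In the other 6 conditions 0 members were called between the labels in the edgeR fit reported or by DESeq2. The share of all genes called in either direction was 0.490% in Control at 2 h, 0.120% in Control at 24 h, 0.146% and 0.0688% with palmitate at 2 and 24 h, and 0.465% and 0.146% with LPS at 2 and 24 h. At an unadjusted p under 0.05 the members' counts were 5, 1, 1, 3, 8 and 4 in that order, where 10.1%, 5.05%, 8.88%, 7.67%, 11.5% and 9.08% of all genes passed. In Control at 2 and 24 h the 38 members summed to means of 1750 and 1507 CPM under the KO label, against 1944 and 1513 CPM under the WT label. With palmitate at 2 and 24 h these means were 1668 and 1427 against 1743 and 1527 CPM. Each of these sums was lower under the KO label, which was not tested. With LPS at 2 h, 37 of 38 differences lay above 0 with a median of 0.17, and with LPS at 24 h 34 of 38 with a median of 0.09, against 51.1% and 51% of all genes above 0. Granulocyte precursor markers summed to 35.8 to 57.4 CPM in WT- and 110 to 182 CPM in KO-labelled libraries with LPS at 2 h, and their part was not tested. Usp18 had the lowest adjusted p with LPS at 2 h, with a log2 difference of 0.70 (standard error 0.22, adjusted p = 0.145) from the levels given above. With LPS at 24 h the differences were 0.31 (standard error 0.12, adjusted p = 0.403) for Isg15, 0.15 (standard error 0.09, adjusted p = 0.682) for Ifit1, 0.17 (standard error 0.11, adjusted p = 0.678) for Rsad2, 0.30 (standard error 0.13, adjusted p = 0.478) for Usp18 and 0.02 (standard error 0.08, adjusted p = 0.97) for Ifih1. The approximate 95% intervals of all 38 differences at 24 h lay between -0.38 and 0.74, so that larger log2 differences between the labels fell outside them. With all genes that had a count, edgeR called 3 members lower in Control at 2 h and 1 lower with palmitate at 24 h. That setting also called 3 higher with LPS at 2 h and 1 higher with LPS at 24 h. The 3 with LPS at 2 h were Usp18 (0.69, adjusted p = 0.0021), Ifit2 (0.32, adjusted p = 0.0036) and Mx1 (0.35, adjusted p = 0.028). Its share of all genes called is not given.

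Whether the LPS effect differed between the labels was tested by an interaction term, the effect in KO-labelled minus that in WT-labelled libraries. No member was called at 2 h by edgeR in the fit of all libraries or by DESeq2, and that edgeR fit called 0% of all genes. The interaction lay above 0 for 36 of 38 members at 2 h with a median of 0.37, 9 had an unadjusted p under 0.05, and the lowest adjusted p was 0.365. Of all genes, 51.4% lay above 0 and 6.97% had an unadjusted p under 0.05. The 38 signs are not separate results, because the members moved together between libraries. KO-labelled Control 2 h library 1 lay above its group mean for 37 of 38 members, and libraries 2 and 3 for 6 and 9. This Control group, lower in sum than the WT-labelled one, enters every interaction at 2 h. Rtp4 had the lowest p at 0.99 (standard error 0.31, adjusted p = 0.365), with levels of 20.7, 18.2 and 17.6 and 41.5, 52.2 and 57 CPM under the WT label and 20.6, 6.98 and 10.3 and 53.1, 68.1 and 79.6 CPM under the KO label. KO-labelled Control library 1 of Rtp4 stood at the WT level and the other two below it. With all genes that had a count, edgeR called 4 members higher at 2 h. They were Rtp4 (0.97, adjusted p = 0.00154), Ifit3 (0.77, adjusted p = 0.00387), Lgals3bp (0.42, adjusted p = 0.0127) and Oas2 (1.02, adjusted p = 0.0165). The share of all genes called with that setting is not given, so this count cannot be set against a background. In the fit reported, the 7 members called at 2 h in KO-labelled libraries alone, Oas2 among them, are thus not shown to differ between the labels. At 24 h this fit called 0 members and 0.00860% of all genes, with 1 member and 5.4% of all genes at an unadjusted p under 0.05. For palmitate this fit called 0 members and 0% of genes at each time. At an unadjusted p under 0.05 there were 1 and 4 members, and 4.18% and 3.54% of all genes. DESeq2 called 0 members in all 4 interactions. These comparisons share their Control libraries with the LPS and palmitate effects above.

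Control libraries were compared over time, averaged over both labels. By 24 h 21 of 38 members had fallen and 0 had risen, where 8.62% of all genes fell and 7.90% rose. The median log2 fold change of the members was -0.37. Ifitm3 fell from 64.8, 76.1 and 62.8 CPM at 0 h to 23, 27.9 and 30.01 CPM at 24 h in WT-labelled libraries and from 119, 73.1 and 132 to 25.8, 25 and 29.9 CPM in KO-labelled ones, a log2 fold change of -1.65 (standard error 0.14, adjusted p = 2.62e-13). Every library at 24 h lay below every library at 0 h. Lgals3bp fell from 329.9, 380.5 and 285 to 228, 223 and 237 CPM and from 345, 339.6 and 335 to 219, 233 and 224 CPM, a log2 fold change of -0.56 (standard error 0.07, adjusted p = 3.03e-08). Oasl2 fell from the levels given above to 22.7, 26.6 and 25.2 and 23.1, 29.2 and 28.5 CPM, a log2 fold change of -0.94 (standard error 0.13, adjusted p = 9.3e-08).

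Slfn2, Rtp4 and Ifi44 completed the 6 members with the smallest adjusted p. Slfn2 fell from 166, 186 and 166 to 142, 127 and 146 CPM under the WT label and from 173, 170.4 and 188 to 126, 124 and 138 CPM under the KO label, a log2 fold change of -0.38 (standard error 0.06, adjusted p = 8.63e-07). Rtp4 fell from 15.4, 20.7 and 13.4 to 4.49, 12.3 and 8.74 CPM and from 26.1, 14.7 and 17.8 to 5.21, 6.56 and 7.36 CPM, a log2 fold change of -1.21 (standard error 0.19, adjusted p = 4.12e-06). Ifi44 fell from 3.08, 3.16 and 4.50 to 1.68, 1.89 and 0.874 CPM and from 7.46, 6.34 and 6.66 to 0.497, 1.46 and 1.42 CPM, a log2 fold change of -1.91 (standard error 0.32, adjusted p = 9.81e-06). The ranges of Slfn2, Rtp4 and Ifi44 at 0 and 24 h did not overlap.

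Of the 5 genes described throughout, all were called lower at 24 h. Ifit1 fell by 0.82, Usp18 by 0.74, Isg15 by 0.67, Rsad2 by 0.49 and Ifih1 by 0.24 on the log2 scale, with adjusted p-values of 0.000205, 0.00619, 0.0491, 0.026 and 0.0322. The call of Isg15 was lost without any 1 of 10 of the 12 libraries, that of Ifih1 without any 1 of 7 and that of Rsad2 without any 1 of 6. The same holds for Bst2 (6), Oas1a (5) and Oasl1 (1). The count of members called lower was 16 to 20 when any 1 library was left out, and the shares of all genes in these refits are not given. The LPS effect at 24 h is measured against these lower Control levels.

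**Figure D5:**
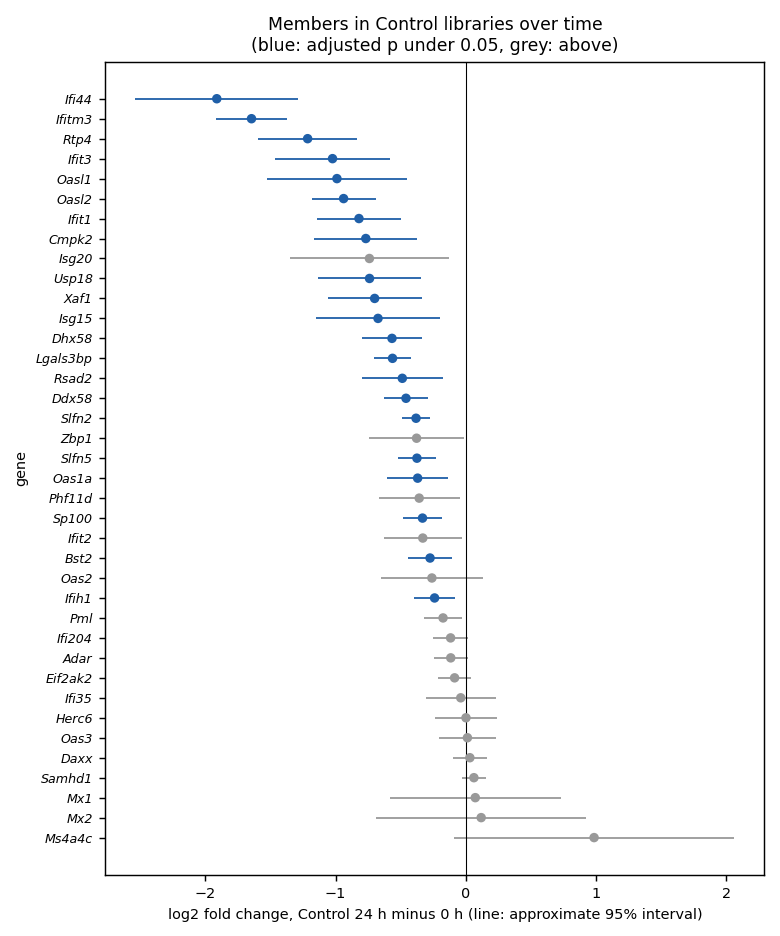
Log2 fold change of each member in Control from 0 to 24 h, averaged over both labels, with lines for the approximate 95% interval, blue where the adjusted p was under 0.05 and grey otherwise. The 21 blue members all lie left of 0, from Ifi44 at -1.91 to Ifih1 at -0.24.

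Between 0 and 2 h, 3 members had fallen in Control and 0 had risen, where 7.36% of all genes fell and 9.35% rose. Pml had 52.8, 45.8 and 46.4 CPM at 0 h and 42.4, 42.2 and 42.7 CPM at 2 h in WT-labelled libraries and 44.2, 55.6 and 45.2 and 34, 39.6 and 28 CPM in KO-labelled ones, a log2 fold change of -0.35 (standard error 0.08, adjusted p = 0.000355). Usp18 had 4.52, 9.16 and 9.13 CPM at 0 h under the WT label and 9.81, 10.4 and 13.3 CPM under the KO label, and changed by -0.56 (standard error 0.19, adjusted p = 0.0365). Ddx58 had 49.9, 47.4 and 48.3 and 56.9, 55.1 and 62.4 CPM at 0 h and changed by -0.25 (standard error 0.09, adjusted p = 0.0345). Usp18 and Ddx58 overlapped between the times. The call of Usp18 was lost without any 1 of 6 of the 12 libraries and that of Ddx58 without any 1 of 7. DESeq2 called 2 members lower and 1 higher. KO-labelled Control 2 h library 1 stood above the mean of its group for 37 of 38 members, by a median of 0.27 on the log2 scale. Without it 6 members were called lower, and without WT-labelled Control 0 h library 3 there was 1. For these 2 refits the share of all genes called is not given.

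The change in Control from 0 to 2 h also differed between the labels for 3 members, each in the lower direction under the KO label, where 4.77% of all genes were called in either direction. The differences were -0.95 (standard error 0.24, adjusted p = 0.0131) for Ifitm3, -0.48 (standard error 0.13, adjusted p = 0.0193) for Eif2ak2 and -1.21 (standard error 0.37, adjusted p = 0.048) for Oas2. Ifitm3 had 79.2, 94.5 and 64.3 CPM in WT- and 75.8, 55 and 64.1 CPM in KO-labelled libraries at 2 h. Eif2ak2 had 57.3, 59.6 and 61.8 and 60.1, 51.7 and 49.9 CPM there. For both the KO-labelled mean was higher than WT at 0 h and lower at 2 h. Oas2 had 7.78, 11.2 and 9.53 and 23.2, 20.02 and 13.8 CPM at 0 and 2 h under the WT label, and 12.4, 15.4 and 15.7 and 19, 8.24 and 10.01 CPM under the KO label. The call of Oas2 was lost without any 1 of 9 of the 12 libraries and held without WT-labelled Control 0 h library 2, WT-labelled Control 2 h library 3 or KO-labelled Control 2 h library 1. Ifitm3 was not called without KO-labelled Control 0 h library 3 or WT-labelled Control 2 h library 2, nor Eif2ak2 without WT-labelled Control 0 h library 3 or KO-labelled Control 2 h library 3. At an unadjusted p under 0.05 there were 16 members and 18.1% of all genes, and DESeq2 called 1, Eif2ak2. Fibroblast markers summed to 1.16 to 58.7 CPM in WT- and 72.3 to 118 CPM in KO-labelled Control libraries at 2 h. Granulocyte precursor markers summed to 16.5 to 25.9 and 54.5 to 108 CPM there, and the part of either list was not tested. Without KO-labelled Control 2 h library 1 the count of members called was 10, and without WT-labelled Control 0 h library 3 it was 1. The shares of all genes called in these refits are not given. From 0 to 24 h the corresponding difference was called for 0 members and 1.83% of all genes in the edgeR fit reported. There were 4 members and 13.9% of all genes at an unadjusted p under 0.05, and DESeq2 called 0 members.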

How the data were processed

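RNA was sequenced in 42 libraries of BMDM, 14 groups of 3, from ribodepleted, stranded, paired-end libraries made with a low-input kit. Per the study's methods and the submitters' processing notes, the authors aligned reads with STAR 2.7.3a to mm10 (GRCm38), and the notes also name fastp 0.19.11. They deposited raw counts per gene. The counting strand and the annotation release are not given in the sources used here. Groups came from the labels, and the columns of a group, which carry no replicate number, were numbered in file order.

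Counts were fitted in R 4.3.3 with edgeR 4.0.16 (TMM scaling, filterByExpr by group, quasi-likelihood test, 14 group means in 1 fit), and p-values were adjusted by Benjamini-Hochberg over 11624 genes. A standard error is the absolute log2 fold change divided by the square root of F, and approximate 95% intervals were derived from it. Such a value may be too small for a large change that rests on few reads, as for Ms4a4c and Ifi44. Alternatives were DESeq2 1.42.0, RLE scaling, all genes with at least 1 count, only the libraries compared, and leaving out each library. The scripts were tested on simulated data. In all 42 pairs of libraries within a group the counts differed by more than sampling error (chi-square over its degrees of freedom, 1.93 to 9.32).

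The members and lists were chosen with earlier results of these data known. Values by library were given for the 3 largest and 3 smallest changes called in each LPS comparison and any member that fell, for at most 6 called members in each other comparison, for Isg15, Ifit1, Rsad2, Usp18 and Ifih1, and for Ifnb1, Irf7 and Stat2. A pathway gene of this rule is not reported here. Other genes were named after their values had been seen. Ifit3, Oas1a, Ifi204, Slfn2, Ms4a4c and the Mx genes have near copies with which reads may be shared, so their counts are uncertain. CPM per kb used the exon length of each gene in the GRCm38 annotation.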

Additional observations from a re-analysis of the deposited data

Results flagged for a closer look

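The LPS effect differed between 2 and 24 h for most members, by a test of the difference itself. In WT-labelled libraries it was larger at 24 h for 31 members and smaller for 1, with Ms4a4c at 6.34, Ifi44 at 5.94, Zbp1 at 5.33 and Slfn2 at -1.09 on the log2 scale. Of all genes, 14.5% were called higher and 18.1% lower there. In KO-labelled libraries it was larger for 30 and smaller for 4, with Ifi44 at 5.88, Ms4a4c at 4.28, Oas3 at 3.96, Ifih1 at -0.55, Slfn2 at -0.99, Rsad2 at -1.04 and Mx2 at -2.24. Under this label 14.3% of all genes were called higher and 19% lower. The value of Mx2 was -1.14 without KO-labelled Control 24 h library 3, and that of Ms4a4c was 3.68 without KO-labelled Control 2 h library 1.

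The change in Control from 0 to 2 h differed between the labels for 3 members, by the interaction term, where 4.77% of all genes were called. DESeq2 called 1 of the 3, Eif2ak2, and the edgeR call of Oas2 was lost without any 1 of 9 of the 12 libraries. The values were -0.95 for Ifitm3, -0.48 for Eif2ak2 and -1.21 for Oas2 on the log2 scale. Without KO-labelled Control 2 h library 1, which stood above the mean of its group for 37 of 38 members, the count was 10. Without WT-labelled Control 0 h library 3 it was 1. The 4.77% belongs to the fit of all libraries, and the shares of all genes in these refits are not given.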

How the results depend on the processing

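No paired analysis was possible because the columns of the count table carry group names without the replicate numbers of the labels. All 38 calls after 24 h of LPS held under every alternative. For counts of members under an alternative or without a library, here and above, the share of all genes called in the same setting is not given. They can therefore not be set against a background. With all genes that had at least 1 count, 4 members were called lower after 2 h of LPS (WT), 5 lower with palmitate at 2 h (WT), 1 higher with palmitate at 24 h (WT) and 4 lower with palmitate at 24 h (KO). Between the labels this setting called 7 higher and 1 lower in Control at 0 h, 3 lower in Control at 2 h, 1 lower with palmitate at 24 h, 3 higher with LPS at 2 h and 1 higher with LPS at 24 h. It called 4 interactions higher for LPS at 2 h, 1 higher for palmitate at 2 h, 9 lower for Control from 0 to 2 h, and 1 higher and 1 lower for Control from 0 to 24 h. In Control from 0 to 2 h it called 5 higher and 5 lower. It called 2 members with a smaller LPS effect at 24 h (WT), as did RLE scaling and DESeq2 (2 each).

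With only the libraries compared, 3 members were lower after 2 h of LPS (WT), 1 lower with palmitate at 2 h (WT), 1 higher at 24 h (WT), 2 lower at 24 h (KO), 6 higher in KO-labelled Control at 0 h, 1 higher in Control from 0 to 2 h and 1 lower in the interaction for Control from 0 to 24 h. DESeq2 called 1 member higher with palmitate at 24 h (WT), 1 lower (KO), 1 higher in Control from 0 to 2 h and 1 lower in its interaction, and RLE called 1 higher in Control from 0 to 2 h.

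Leaving out 1 library gave 0 to 2 members lower with palmitate at 2 h (WT), 1 to 4 higher in KO-labelled Control at 0 h, 1 to 2 with a smaller LPS effect at 24 h (WT), 0 to 2 higher and 1 to 6 lower in Control from 0 to 2 h, and 1 to 10 and 0 to 1 lower in the interactions for Control from 0 to 2 and 0 to 24 h. Log2 fold changes at 2 h of LPS that changed sign were, in WT-labelled libraries, those of Sp100 (-0.025 to 0.15), Oas2 (-0.34 to 0.24) and Oas1a (-0.045 to 0.29), and in KO-labelled libraries those of Oas3 (-0.33 to 0.16), Ifitm3 (-0.094 to 0.33), Bst2 (-0.052 to 0.21) and Pml (-0.064 to 0.18). None of these 7 was called in the setting reported. The causes of these changes were not tested.

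Library totals of 2848793 to 7743442 counts limit genes such as Ms4a4c and Mx2, whose Control levels rest on few reads, so that their fold changes depend on those reads.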

Other observations

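Early targets of NF-kappaB also moved in Control without treatment. Of the 15 listed, 11 rose and 2 fell between 0 and 2 h, with a median log2 fold change of 1.08 over both labels, where 9.35% of all genes rose and 7.36% fell. Of the 38 antiviral members 0 rose and 3 fell (7.89%), near the share of all genes that fell. Between 0 and 24 h 1 of the 15 rose and 1 fell, with a median of 0.03.

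Stat2, which was not among the 38 members, was higher in KO-labelled than in WT-labelled Control libraries at 0 h by 0.41 on the log2 scale (standard error 0.12, adjusted p = 0.0148).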
